A study of Mus musculus with 6 samples.

Results

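Slit, Robo and netrin genes encode secreted axon guidance cues and their receptors, and 9 of them were followed here across mammary cell populations: the Slit ligands Slit1, Slit2 and Slit3, the Slit receptors Robo1 and Robo2, the netrins Ntn1 and Ntn4, and the netrin receptors Neo1 and Unc5b. Members were all non-control probes whose gene name on the array was 1 of these 9, which gave 25 of 41174 probes and 9 of the 24838 genes tested. The genes had 1 to 6 probes each, and 19 of the 25 probes passed a filter on dim signal, with at least 1 from each gene. RNA came from virgin C57/B6 mice that were either DNP63 KO heterozygous, called het below, or wild type (WT). The p63 protein is a transcription factor of basal epithelium, and ΔNp63 stands for the isoforms that lack its N-terminal transactivation domain. Het P4, WT P4, het P5, WT P5, het MEC and WT MEC were measured with 1 array per group. P4 was sorted as CD24+CD29hi and labelled as enriched for mammary stem cells (MaSC), P5 was sorted as CD24+CD29lo and labelled as enriched for luminal progenitors, and MEC were total mammary epithelial cells. The labels give neither the age of the mice nor how many contributed to an array, so the p-values below measure the spread between these arrays only. With 1 array per group, that spread is how far the het minus WT difference varied between populations, moderated over all genes. A genotype effect that differs between populations and noise between arrays cannot be told apart in it. Each value is the log2 ratio of the sample (Cy5) over a reference RNA from 11 mouse cell lines (Cy3) on a 2-colour Agilent array, so levels compare samples for 1 gene and not 1 gene with another.

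Slits are large secreted glycoproteins that bind Robo receptors and usually repel the cells that carry them. Netrins are laminin-related secreted proteins that attract or repel through neogenin (Neo1) and its relative Dcc, or through Unc5 receptors. In the mammary gland these systems are known outside the nervous system: netrin-1 made by body cells and neogenin on cap cells hold the layers of the terminal end bud together, and Slit signalling through Robo1 in the basal layer restrains branching and holds the bilayer together.

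A pair of probes for each of Slit2, Slit3, Robo1 and Ntn1 is given by the first 30 of their 60 bases, 5′ to 3′ and in lower case. They are shown because probes of the same gene did not always give the same difference. The file headers place them on mouse build mm7. The exon or UTR each of them lies in is not annotated in the sources used here. The Slit2 probes lay at chr5:47631141-47631200 and chr5:47630515-47630574 on the plus strand.
Slit2, A_51_P496569: cctccttcaggacacttgcagaaggtttgc
Slit2, A_51_P496562: gacacatcgagcacaagtgtgtgagtgaga
The Slit3 probes lay at chr11:35565582-35565641 and chr11:35561771-35561830 on the plus strand.
Slit3, A_51_P355765: gttctataaaagagagtaacagtgttacaa
Slit3, A_51_P301809: aatatgtcttccagtgcacggacggctcct
The Robo1 probes lay at chr16:73042586-73042645 and chr16:73000652-73000711 on the plus strand.
Robo1, A_51_P174314: agctggtgacctcacgtacagactttatcg
Robo1, A_52_P30152: cttcctgctgttttaacactctgaacttta
The Ntn1 probes lay at chr11:68291883-68291942 and chr11:68308125-68308184 on the minus strand.
Ntn1, A_52_P401473: tattaacagagttgtgatatgtaggtcttt
Ntn1, A_51_P147123: actgtgattcctattgcaaggcctccaaag
The first probe of each pair had the higher mean Cy5 level and represents the gene in the results. Neo1 is represented by A_51_P476728 at chr9:58905342-58905400 and Unc5b by A_51_P294535 at chr10:60282808-60282867, both on the minus strand.

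In the Cy5 channel 74.3% to 89.8% of an array's spots exceeded background clearly, and with 1 array per group it is the number of arrays that limits precision. The 4 sorted samples shared slide 1 and both MEC samples slide 2, so wherever MEC enters, population and slide cannot be told apart. Genotype cannot be told apart from slide position either, because het always had the later position. The sort was checked against its markers. All 8 basal markers (Krt5, Krt14, Krt17, Acta2, Myh11, Cnn1, Oxtr and Trp63) were called higher in P4 than in P5 by limma. Of the luminal markers, 7 of 8 were called lower, and Pgr was lower without a call (-2.12). Fibroblast markers (Col1a1, Col1a2, Col3a1, Dcn, Lum and Pdgfra) were above background on all 6 arrays, with a summed Cy5 level of 36033 in het P4, 26480 in WT P4, 19834 in het P5, 9930 in WT P5, 189868 in het MEC and 361730 in WT MEC. The targeted gene, Trp63, had log2 ratios of 5.49 in het P4 and 5.99 in WT P4, 0.89 in het P5 and 0.54 in WT P5, and 2.67 in het MEC and 3.71 in WT MEC. It was thus lower in het P4 and het MEC and higher in het P5 than in the WT array of the same population. Neither the deleted part of the gene nor the isoforms this probe reads are given in the sources used here, so it is a weak check of the labels.

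P4 was first compared with P5, the pair that shares a slide. Slit2, Slit3, Robo1, Unc5b and Neo1 were higher in P4, with Neo1 at the threshold, and Ntn1 was lower. The basal-enriched fraction thus held more RNA for Slit2, Slit3 and these receptors, and the luminal-enriched fraction more for Ntn1. With adjusted p under 0.05, 5 of 9 members were called higher against 7.54% of all genes, and 1 of 9 lower against 7.4%. All 9 members had P4 and P5 arrays that did not overlap, 7 of them higher in P4 and 2 lower, where 29.3% of all genes were higher without overlap and 23.8% lower. For Robo2 the nearest arrays stood at 0.01 (WT P4) and -0.002 (WT P5). That is closer than the SD of 0.15 for a difference of dim probes, taken from replicate spots within an array. Ntn4 was not well above background on either P4 array. The median difference of the members was 0.93, beside 0.07 for all genes tested. In sorted bulk samples, fewer cells of a type and less RNA per cell cannot be told apart.

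**Figure D1:**
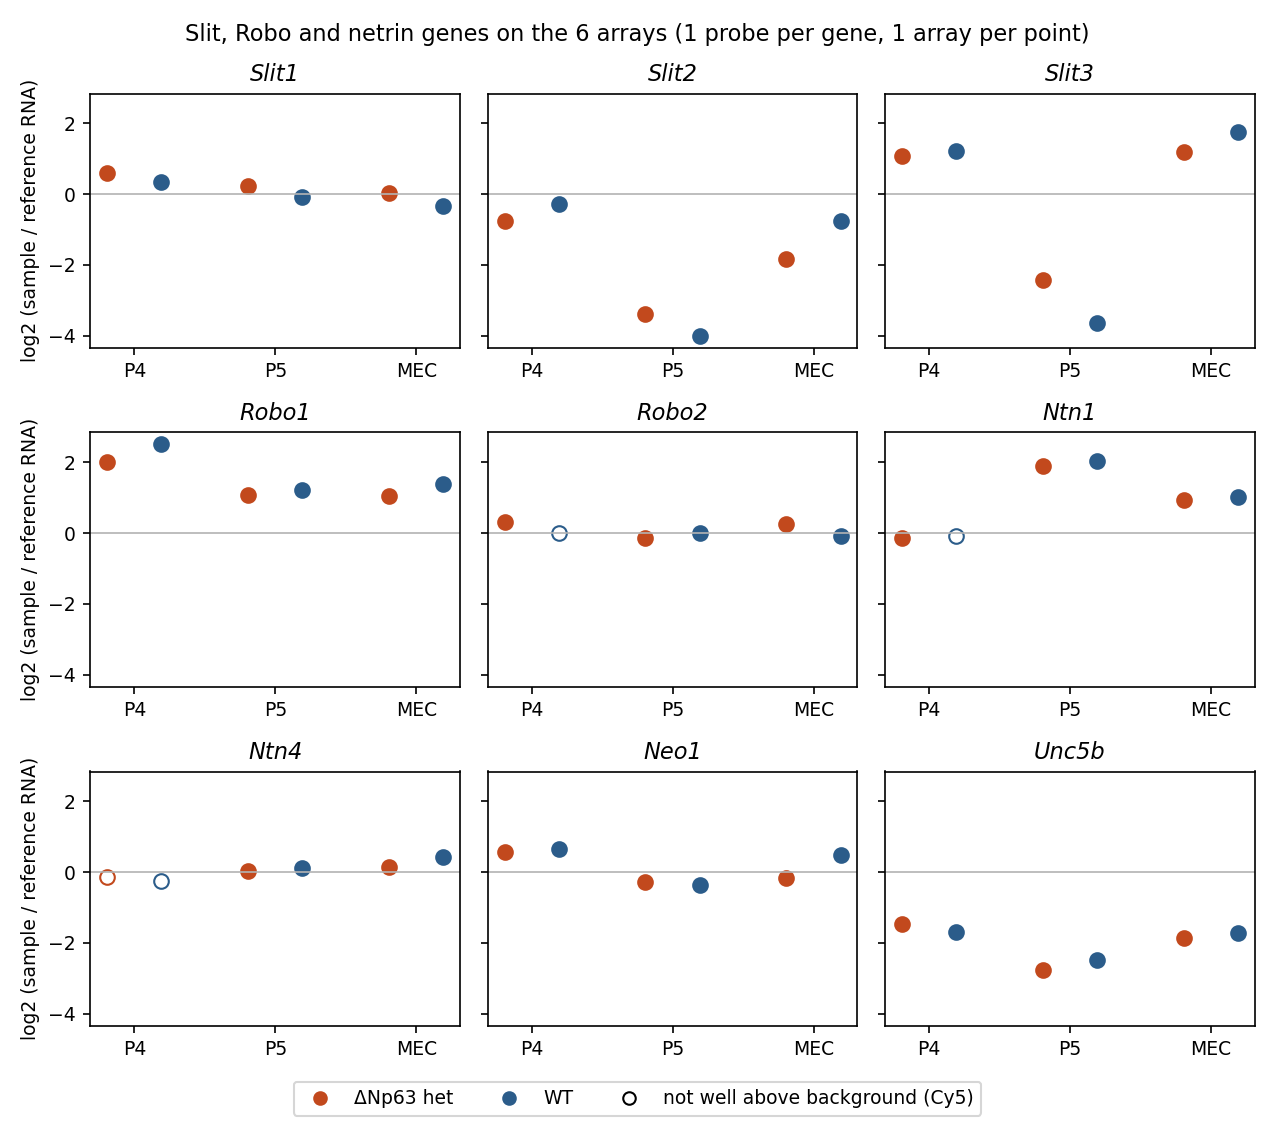
Log2 ratio of sample over reference RNA (y axis) for the probe that represents each of the 9 genes, with 1 point per array in P4, P5 and MEC, het left of WT, and open points where the spot was not well above background in Cy5. Slit2 and Slit3 sit lowest in P5 (-3.38 and -4.01, and -2.44 and -3.63, in het P5 and WT P5), while Ntn1 is highest there (1.90 and 2.05).

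Slit3 had log2 ratios of 1.07 in het P4 and 1.22 in WT P4, against -2.44 in het P5 and -3.63 in WT P5. The P4 minus P5 difference was 4.18 (SE 0.42, adjusted p = 0.00651), an 18.2-fold higher level in P4, and ranked 88th in size among the 24838 genes. Slit2 had -0.76 in het P4 and -0.28 in WT P4, against -3.38 in het P5 and -4.01 in WT P5. Its difference was 3.18 (SE 0.40, adjusted p = 0.0113), or 9.05-fold, ranked 258th. For both genes the P4 arrays lay close together and far above either P5 array, and the het P5 array lay above the WT P5 array. With the mean over its probes the Slit2 difference was 1.33. The P5 spots of the representing Slit2 probe were well above background but dim. Their raw Cy5 signals of 73.8 in het P5 and 86.2 in WT P5 were close to the range of the Robo2 probes given below. Beside the Slits, 1 of 6 fibroblast markers and 2 of 4 pericyte markers were called higher in P4 than in P5, with medians of 1.07 and 0.98, and their part in the Slit differences was not tested. Slit1, the Slit best known from the nervous system, spanned less than 1 on the log2 scale, with 0.59 in het P4 and 0.34 in WT P4, against 0.22 in het P5 and -0.09 in WT P5. Its difference of 0.39 was not called (95% interval 0.07 to 0.72, adjusted p = 0.107).

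The receptors differed by less. Robo1, the main Slit receptor of the basal layer, had 2.0 in het P4 and 2.52 in WT P4, against 1.08 in het P5 and 1.21 in WT P5, a difference of 1.12 (SE 0.15, adjusted p = 0.0131), and 0.66 with local backgrounds used as given. Unc5b, a repulsive netrin receptor best known from blood vessels, had -1.47 in het P4 and -1.69 in WT P4, against -2.77 in het P5 and -2.48 in WT P5, a difference of 1.04 (SE 0.17, adjusted p = 0.0209). Neo1, the netrin receptor neogenin, had 0.56 in het P4 and 0.65 in WT P4, against -0.27 in het P5 and -0.37 in WT P5. Its difference of 0.93 (SE 0.22) stood at the threshold with an adjusted p of 0.0499, and it was not called with local backgrounds used as given (adjusted p = 0.0816), in the scanner software's ratios (adjusted p = 0.0802), with the mean over probes (adjusted p = 0.0631), with median centring (adjusted p = 0.124), with an offset of 0 (adjusted p = 0.057) or without a filter on dim probes (adjusted p = 0.0515). Unc5b was not called with median centring (0.56, adjusted p = 0.0589).

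Robo2, the other Slit receptor followed, was near background on every probe. Its 6 probes had raw Cy5 signals of 41.4 to 80.0 scanner units, and the representing probe gave 0.32 in het P4 and 0.01 in WT P4, against -0.15 in het P5 and 0.00 in WT P5. The difference was 0.24 (95% interval -0.20 to 0.68, adjusted p = 0.414), and a change in Robo2 was not detectable at this signal.

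Among the ligands of the netrin receptors, Ntn1 ran the other way from the Slits. It had -0.13 in het P4 and -0.07 in WT P4, against 1.90 in het P5 and 2.05 in WT P5, a difference of -2.08 (SE 0.13, adjusted p = 0.00257), or 4.22-fold lower in P4. The het and WT arrays of each population lay within 0.15 of each other. The spot was well above background on 1 of the 2 P4 arrays, het P4, so the P4 level is near the limit of detection, and in the scanner software's ratios, which subtract more background, the difference was -3.47. Ntn4, a basement membrane netrin, was not well above background on either P4 array, and its P5 mean was at least 1.13-fold higher than the P4 limit. It had -0.15 in het P4 and -0.24 in WT P4, against 0.04 in het P5 and 0.10 in WT P5, and its difference of -0.27 was not called (adjusted p = 0.295), but it was in the scanner software's ratios (-1.37, adjusted p = 0.0356).

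**Figure D2:**
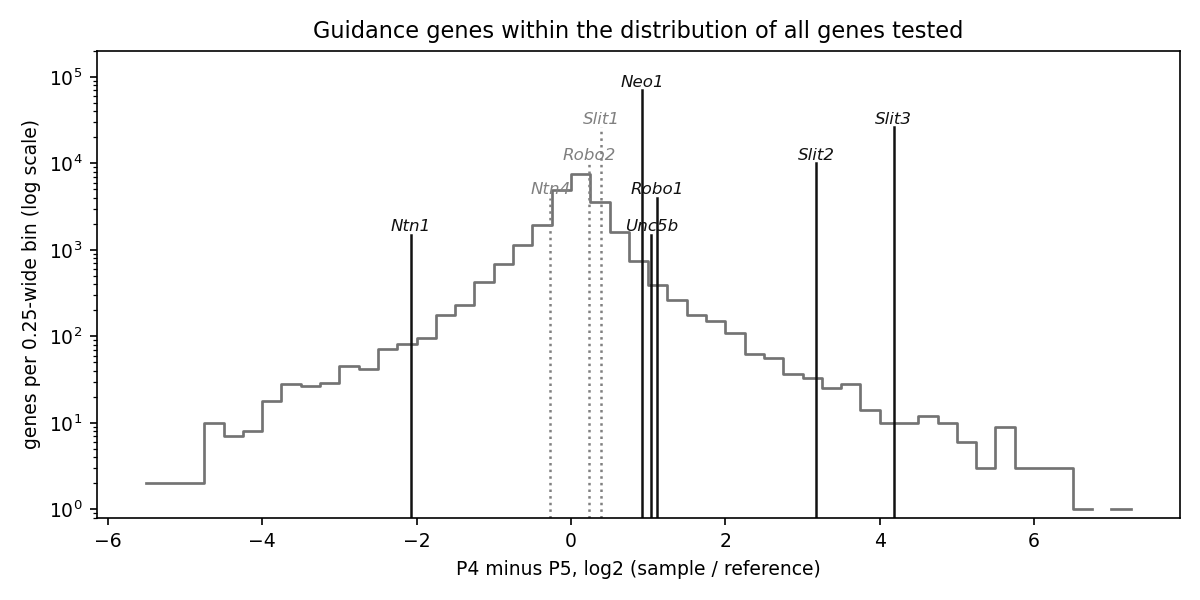
Number of genes per bin (grey line, log scale) against the P4 minus P5 difference for all 24838 genes tested, with the 9 members marked, solid where called and dotted where not. Slit3 (4.18) and Slit2 (3.18) lie in the right tail, Ntn1 (-2.08) in the left tail, and Robo1, Unc5b and Neo1 near 1.

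The other probes gave the same direction with smaller differences for most of these genes. The second Slit2 probe, from the same transcript record, differed by 1.68 (adjusted p = 0.026), and the second Slit3 probe by 1.98 (adjusted p = 0.0123). Of the 4 remaining Slit2 probes, each designed on its own cDNA clone record, 2 passed the filter and differed by 0.24 and 0.20 (adjusted p = 0.394 and 0.434). The second Robo1 probe differed by 0.28 (adjusted p = 0.262). The second Ntn1 probe differed by -0.49 (adjusted p = 0.0754) and was not well above background in P4, with P5 at least 1.24-fold higher than the P4 limit. For Neo1, A_52_P269003 differed by 0.77 (adjusted p = 0.0197) and A_52_P907073 by -0.15 (adjusted p = 0.488). The Robo1 call and the Ntn1 call therefore each rested on 1 probe, while the Slit2, Slit3 and Neo1 calls were each made by 2. Unc5b had 1 probe, so its call had no second probe beside it. These adjusted p-values are over every probe tested, where 14% were called.

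**Figure D3:**
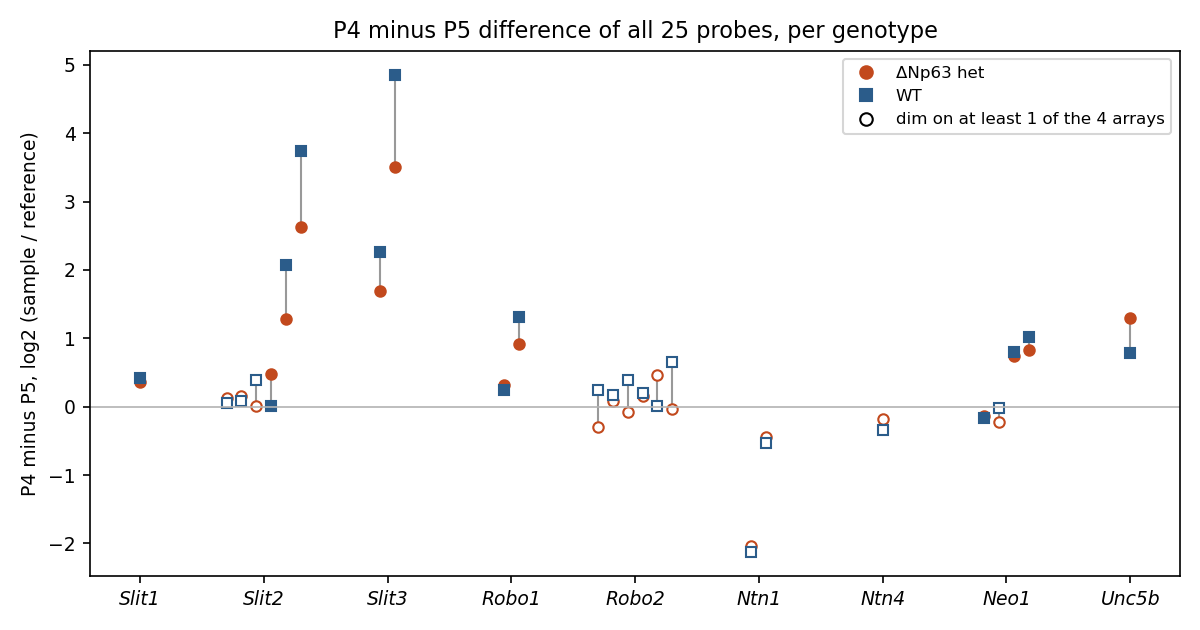
P4 minus P5 difference (y axis, log2 ratio) of all 25 probes grouped by gene, with a circle for het and a square for WT joined by a line, and open symbols where the spot was not well above background on at least 1 of the 4 arrays. The strongest probes of Slit2 and Slit3 stand at 2.62 (het) and 3.73 (WT), and at 3.51 (het) and 4.86 (WT), with their other probes nearer 0.

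The calls depended on having both P4 arrays. Without het P4 or without WT P4, 0 members and 0% of genes were called by limma, although every called member kept its direction, with Slit3 at 4.42 without het P4 and 3.95 without WT P4 (adjusted p = 0.109 and 0.141), Slit2 at 3.30 and 3.05 (adjusted p = 0.144 and 0.18), Robo1 at 1.26 and 0.98 (adjusted p = 0.12 and 0.18), Ntn1 at -2.10 and -2.05 (adjusted p = 0.0839 and 0.0936), Neo1 at 0.83 and 1.02 (adjusted p = 0.34 and 0.251) and Unc5b at 0.82 and 1.27 (adjusted p = 0.183 and 0.135). Without het P5, 4 members were called (Slit2, Slit3, Robo1 and Ntn1) against 12.2% of genes, and without WT P5, 3 (Slit2, Slit3 and Ntn1) against 4.38%. Each of these fits has 1 residual degree of freedom and assumes that the lone array varies like the others.

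The sorted fractions were then set against total MEC, which holds basal, luminal and stromal RNA on the other slide. In P5 against MEC, Slit2 and Slit3 were lower and Ntn1 higher. In P4 against MEC, Robo1 and Slit1 were higher and Ntn1 lower. In P4, 2 of 9 members were called higher, against 9.48% of all genes, and 1 lower, against 8.31%. In P5, 1 was called higher, against 1.98%, and 2 lower, against 4.09%.

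Slit3 was -2.44 in het P5 and -3.63 in WT P5, against 1.19 in het MEC and 1.74 in WT MEC. The P5 minus MEC difference of -4.50 (SE 0.42, adjusted p = 0.0138) ranked 11th in size among all genes. Slit3 in P4 lay near MEC (difference -0.32, adjusted p = 0.641), and without WT MEC this small difference turned to 0.21. Slit2 was -3.38 in het P5 and -4.01 in WT P5, against -1.84 in het MEC and -0.76 in WT MEC, a difference of -2.40 (adjusted p = 0.0386). P4 minus MEC was 0.78 for Slit2 (adjusted p = 0.238). All 6 fibroblast markers were called lower in P5 than in MEC and all 6 lower in P4 than in MEC, by a median of -4.73 and -3.59. With median centring Slit3 was also called lower in P4 than in MEC (-2.0, adjusted p = 0.0072). The part of fibroblast RNA in the MEC values was not tested.

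Ntn1 took an intermediate level in MEC, 0.93 in het MEC and 1.01 in WT MEC. It was 1.01 higher in P5 than in MEC (adjusted p = 0.0217) and fell by 1.07 in P4 against MEC (adjusted p = 0.0111). Robo1 stood at 1.05 in het MEC and 1.40 in WT MEC, and was 1.03 higher in P4 than in MEC (adjusted p = 0.0167), with P5 near MEC (-0.08, adjusted p = 0.798). The order of Robo1 levels was P4 above P5 and MEC, without a called difference between P5 and MEC, but median centring gave another order. Slit1 was 0.62 higher in P4 than in MEC (adjusted p = 0.0343). Unc5b in P5 against MEC was -0.85 and missed the threshold (adjusted p = 0.0561). Median centring, which moves the median of all genes to -0.45 in P4 against MEC and -0.40 in P5 against MEC, turned the direction of Slit1, Slit2, Neo1, Unc5b and Ntn4 in P4 against MEC. It also brought the difference of Robo1 in P4 against MEC down to 0.03 (adjusted p = 0.876), and Robo1 was then called lower in P5 than in MEC (-0.67, adjusted p = 0.0131).

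All 6 of these MEC calls were lost without het P4 or without WT P4, when limma called 0 of 24678 genes in either comparison, and 3 remained without WT P5, where Slit2 in P5 was -1.69 (adjusted p = 0.0789), Ntn1 in P5 0.97 (adjusted p = 0.131) and Slit1 in P4 0.62 (adjusted p = 0.0599). Without het P5, Ntn1 in P5 (1.04, adjusted p = 0.0615) and Slit1 in P4 (0.62, adjusted p = 0.0599) were lost, and without WT MEC Slit1 in P4 was lost (0.58, adjusted p = 0.0589). With local backgrounds as given, the calls that remained were Slit3 in P5 (-4.35, adjusted p = 0.0187) and Robo1 in P4 (0.78, adjusted p = 0.0434). In the scanner software's ratios Ntn1 in P5 (0.60, adjusted p = 0.118) and Robo1 in P4 (0.88, adjusted p = 0.0582) were not called, while Ntn1 in P4 was -2.87. With the mean over probes Slit2 in P5 was -0.92 (adjusted p = 0.0692) and Ntn1 in P5 0.52 (adjusted p = 0.0718), with an offset of 0 Ntn1 in P5 was 0.73 (adjusted p = 0.0773), and in the Cy5 channel alone Slit1 in P4 was 0.38 (adjusted p = 0.143).

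Het and WT were compared to ask how losing 1 copy of ΔNp63 bears on these genes. Averaged over the 3 populations, 0 of 9 members were called, and limma called 0 of 24838 genes, with 14.7% of genes at an unadjusted p under 0.05. Without het MEC or without WT MEC, where the lone MEC array adds nothing to the genotype estimate and P4 and P5 alone set it, 7.72% of genes were called and still 0 members. The members nearest the threshold were Slit1 and Robo1. Slit1 had 0.59 in het P4 and 0.34 in WT P4, 0.22 in het P5 and -0.09 in WT P5, and 0.03 in het MEC and -0.33 in WT MEC. It was higher in het in 3 of 3 populations, with a mean difference of 0.31 (95% interval 0.04 to 0.57, adjusted p = 0.306). Robo1 was lower in het in 3 of 3 populations, by 0.52 in P4, 0.13 in P5 and 0.35 in MEC on the log2 scale, with a mean difference of -0.33 (95% interval -0.65 to -0.02, adjusted p = 0.324). With local backgrounds used as given, the Robo1 differences turned to 0.30 in P4, 0.01 in P5 and 0.18 in MEC. Their mean was then 0.17 (adjusted p = 0.408). The second Robo1 probe did not follow, at 0.13, 0.05 and 0.34.

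**Figure D4:**
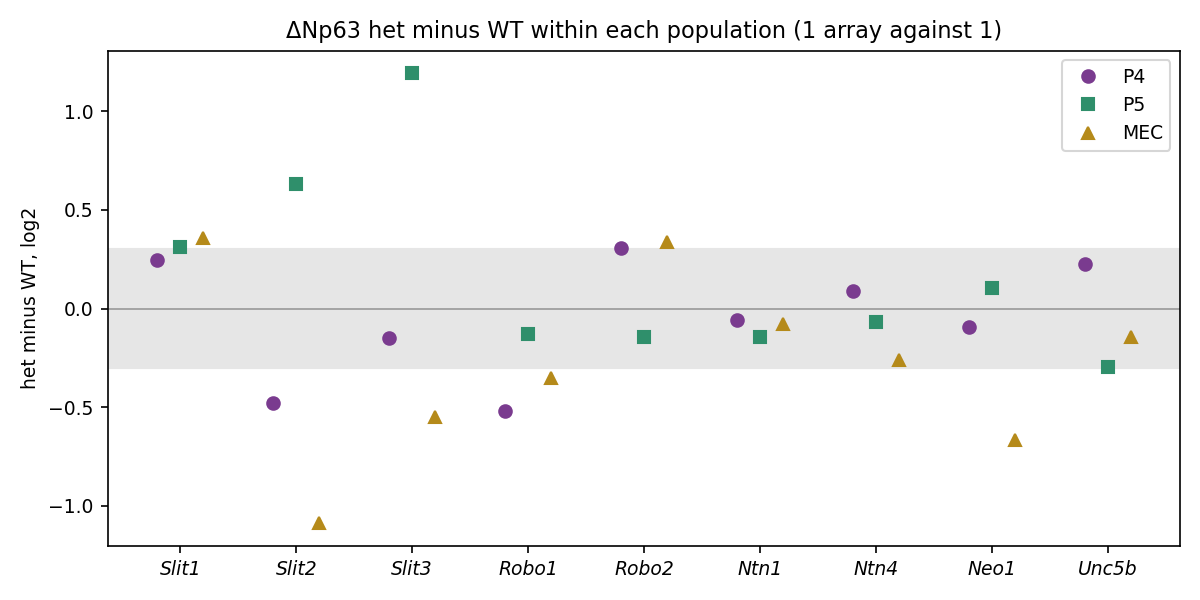
Het minus WT difference (y axis, log2) of each gene in P4, P5 and MEC, 1 array against 1. The grey band marks 2 SDs of a difference of dim probes, from replicate spots within an array, on either side of 0. Slit3 in P5 (1.19) and Slit2 in MEC (-1.09) lie outside 1 log2 unit, and the other 25 differences lie within it.

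Within populations each difference is 1 array against 1 and has no test. From 245 probes printed 10 times on each array, the spread of replicate spots within an array gave an SD of 0.13 for a difference. It holds no spread between arrays, such as that of labelling or hybridisation, and none between animals. Of the 27 member differences, 2 reached 2-fold, against 4.01% of genes in P4, 3.17% in P5 and 2.23% in MEC. Slit3 was higher in het P5 than in WT P5 by 1.19, and the second Slit3 probe by 0.51. Slit2 was lower in het MEC than in WT MEC, at -1.09, and at -0.71 on its second probe, but A_52_P142870, a Slit2 probe also above background on all 6 arrays, was higher in het MEC by 0.20 and in het P4 by 0.55. In P5 the Slit2 difference was 0.63 and in P4 -0.48, and the Slit3 difference was -0.15 in P4 and -0.55 in MEC. Neo1 was lower in het MEC by 0.67 on the log2 scale and differed by at most 0.10 in the sorted cells. With median centring it was also lower in het P4 (-0.68) and het P5 (-0.37). The Neo1 probe A_52_P269003 gave -0.21 in MEC, -0.18 in P4 and -0.12 in P5. A_52_P907073 gave -0.12 in MEC, -0.12 in P4 and -0.14 in P5, so the larger MEC difference rested on 1 probe. The netrins differed by at most 0.26 in any population, and under other settings by up to 0.53 for Ntn1 in MEC (backgrounds as given) and -0.68 for Ntn4 in MEC (offset of 0).

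Marker levels also differed between the het and WT arrays. Of the 6 fibroblast markers, 5 were higher in het P4 than in WT P4, 6 higher in het P5 than in WT P5 and 0 higher in het MEC than in WT MEC. Of the 8 basal markers, 6 were higher in het P4, 7 in het P5 and 4 in het MEC than in the WT array. Of the 8 luminal markers, 2 were higher in het P4, 3 in het P5 and 5 in het MEC. Het P5 was also higher for 6 of 6 endothelial, 4 of 4 pericyte and 5 of 5 immune markers. It was higher for 4 of 4 nerve and Schwann cell markers, but for 1 of 4 adipocyte markers. The matching counts in het P4 were 2, 3, 4, 3 and 3, and in het MEC 3, 2, 2, 2 and 2. The P5 shift was thus not limited to fibroblast and basal markers. Over all genes, the median het minus WT difference stood at 0.08 within each sorted population and 0.01 within MEC. The mean log2 ratio of the 8 basal markers was 1.44 in het P5 and 0.84 in WT P5, and 3.07 in het MEC and 3.17 in WT MEC. That of the 6 fibroblast markers was -2.32 in het P5 and -3.39 in WT P5, and 1.17 in het MEC and 2.21 in WT MEC. In P4 the basal markers were at 5.47 in het P4 and 5.31 in WT P4 and the fibroblast markers at -1.35 and -1.85, while Slit2 was lower in het P4. The part of any marker set in the Slit differences was not tested.

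**Figure D5:**
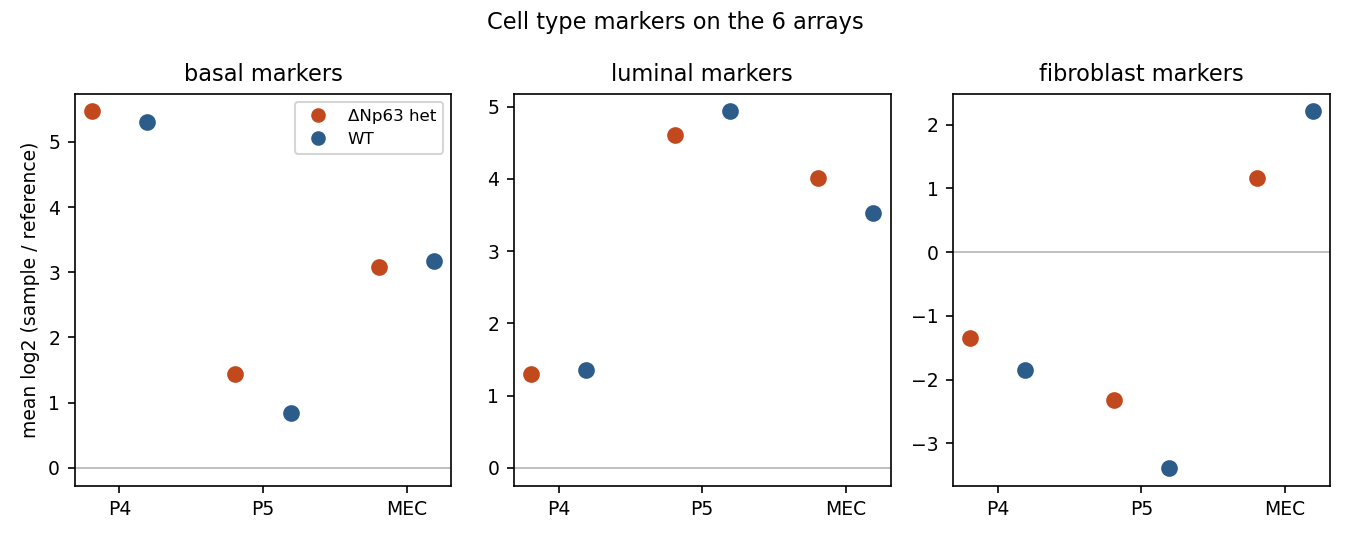
Mean log2 ratio of sample over reference (y axis) of 8 basal, 8 luminal and 6 fibroblast markers on the 6 arrays, het left of WT in each population. Basal markers are highest in P4 (5.47 and 5.31), luminal markers in P5 (4.61 and 4.93) and fibroblast markers in MEC (1.17 and 2.21).

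Genes with the most similar pattern over the 6 arrays were sought for the 3 members that spanned over 2 on the log2 scale, by the root mean square difference after centring each gene on its own mean. Nearest to Slit2 were Dpysl3 (0.11), a collapsin response mediator family gene, Nectin3 (0.16), a cell adhesion molecule, and Sema6d (0.17), a membrane semaphorin. Nearest to Slit3 were Fstl1 (0.25), which encodes a secreted glycoprotein, Ppic (0.31), a cyclophilin gene, and Sparc (0.34), a matricellular protein of basement membrane and stroma. Among those nearest to Ntn1 were Ap1m2 (0.10), an epithelial clathrin adaptor subunit, and Llgl2 (0.14), a basolateral polarity gene. These are descriptions of 6 arrays, 4 of which share a slide.

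The rest of the pathway was counted in lists chosen with earlier results known. Of 20 other ligands and receptors, among them Robo3, Robo4, Unc5a, Unc5c, Unc5d and the netrin-G genes, 19 were tested and 0 were called between P4 and P5 by limma, and Dcc had no probe that passed the filter. Their median difference was 0.10. Against MEC, Flrt2 was called higher in P4 (0.56, adjusted p = 0.0444) and Robo4, the endothelial Robo, lower in P5 (-2.06, adjusted p = 0.0376), both named after their values were seen. Endothelial markers were called lower in P5 than in MEC for 5 of 6 genes. Of 26 effectors and binding partners, 6 were called higher in P4 than in P5 and 3 lower, with a median of 0.15, beside 7.54% and 7.4% of all genes. Snai2, a transcriptional repressor of the basal lineage, was higher (5.94, adjusted p = 0.00658), and a link of it to Slit and Robo was not tested. Also higher were Evl, an actin regulator of the Ena/VASP family (1.81, adjusted p = 0.0301), Dag1, the Slit-binding dystroglycan (1.28, adjusted p = 0.00617), Trio, a guanine nucleotide exchange factor downstream of netrin receptors (1.28, adjusted p = 0.0156), the heparan sulfate proteoglycan gene Sdc1 (0.97, adjusted p = 0.014) and the kinase gene Fyn (0.80, adjusted p = 0.0339). Lower were the adaptor gene Nck2 (-1.44, adjusted p = 0.0405), Enah, another Ena/VASP gene (-1.23, adjusted p = 0.0223), and the GTPase gene Rac1 (-0.92, adjusted p = 0.0431). No list member was called between het and WT.

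RefSeq windows (GRCm38.p6) of 250 bases upstream of the start were matched for 7 members, 9 windows in all, and searched on both strands for the p53-family half-site, a 10-base motif that p53, p63 and p73 share, and for the E-box CAGGTG. The half-site occurred in 7.13% of 32851 windows and the E-box in 17.2%. Slit1 and Ntn1 had no window and were not searched. Among the 7 matched members only the Robo1 window, chr16:72662899-72663148 on the plus strand, held either. It is shown for that reason, with the half-sites in capitals, whose first bases lie 213 and 109 bases before the start.
Robo1 upstream: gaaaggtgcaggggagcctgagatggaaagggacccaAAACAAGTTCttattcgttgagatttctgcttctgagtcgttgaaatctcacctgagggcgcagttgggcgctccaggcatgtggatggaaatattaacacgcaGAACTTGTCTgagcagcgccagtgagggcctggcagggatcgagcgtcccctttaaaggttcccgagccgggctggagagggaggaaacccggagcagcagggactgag
The E-box lies on the other strand and starts 164 bases before the start, between the half-sites and overlapping neither. A match is a description of letters, and binding was not measured here.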

How the data were processed

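RNA of 6 groups was hybridised to 1 Agilent 2-colour array each, without dye swaps. Per the file headers, the authors extracted raw spot intensities (mean signal and median local background) with Feature Extraction, version 9.5.3.1 in the submitters' processing notes. A log10 ratio (Cy5 over Cy3) computed by that software is deposited beside them, with background and dye effects already removed. A further deposited table gives log2 values, whose columns have medians of -0.04 to 0.10 and correlate across probes at 0.988 to 0.999 with the scanner ratios, so that its direction is sample over reference.

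From the raw intensities, local backgrounds over 2 times, or under the array median divided by 2, were replaced by that median. At most 14 spots per array and channel were affected, but used as given they set the noise estimate of the whole array in the WT P4 Cy3 channel to 520, against 1.06 when replaced. Normexp correction (offset 50), loess within arrays with controls and outlier spots at weight 0, and averaging of replicate spots followed, in R 4.3.3 with limma 3.58.1. A gene was represented by its probe of highest mean Cy5 level among probes that exceeded background clearly in Cy5 on 2 or more arrays. The additive limma fit of population and genotype over 6 arrays left 2 residual degrees of freedom, which hold departures from additivity and array noise together. Benjamini-Hochberg adjustment ran over all 24838 genes, with calls at 0.05. A lower limit on a fold sets the mean of the measured group against a limit for the dim one. On each array of the dim group the higher of 2 levels was taken, the probe's own and the array's lowest level clearly above background. The mean of these over the arrays is the limit. The fit was tested on simulated shifts first.

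The 9 genes, the lists and the rules were chosen with earlier results of these data known. Every probe of each member is reported, list genes are named where they passed the test between P4 and P5 or between het and WT, and the 3 nearest genes where a member spanned over 2 on the log2 scale, of which 1 is not reported here. Alternatives were backgrounds as given, the software's ratios, the deposited table, an offset of 0, median centring, the Cy5 channel alone, the mean over probes, no filter or a filter on all 6 arrays, the sorted arrays alone, every probe tested, and each array left out.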

Additional observations from a re-analysis of the deposited data

Results flagged for a closer look

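Slit2 and Slit3 had het minus WT differences of opposite direction in different populations. Slit2 was lower in het P4 than in WT P4 (-0.48), higher in het P5 than in WT P5 (0.63) and lower in het MEC than in WT MEC (-1.09). Slit3 was higher in het P5 than in WT P5 (1.19) and lower in het MEC than in WT MEC (-0.55). The Slit2 probe A_52_P142870, above background on all 6 arrays, did not change sign, at 0.55 in P4, 0.07 in P5 and 0.20 in MEC. Each is 1 array against 1, and the difference between populations was not tested. The Slit2 difference in P5 came from dim spots. Their raw Cy5 signals were 73.8 in het P5 and 86.2 in WT P5, so before normalization het was the lower. Across the 8 settings that gave a value, the Slit2 difference lay between -0.97 and -0.13 in P4, between 0.22 and 0.63 in P5, and between -1.29 and -0.45 in MEC. That of Slit3 lay between 0.70 and 1.32 in P5 and between -0.88 and -0.43 in MEC.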

How the results depend on the processing

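With every probe tested, the probes of a called member did not all follow, as given above. Over the alternatives with 1 value per gene, each member called between P4 and P5 kept its direction. Slit2, Slit3, Robo1 and Ntn1 kept their call, where tested, in each of these alternatives that left no array out. That count was 6 of 9, and leaving out 1 array gave 0 (without het P4 or without WT P4) to 6 (without either MEC array), with 3 without WT P5. The count against MEC was 6 calls. It was 2 with backgrounds as given and 11 with median centring, and 0 to 8 with 1 array left out, where 0 came without het P4 or without WT P4 and 3 without WT P5. With median centring, P4 minus MEC turned to -0.14 for Slit1, -0.76 for Slit2, 0.22 for Ntn4, -1.19 for Neo1 (adjusted p = 0.00237) and -1.35 for Unc5b (adjusted p = 0.000927), and P5 minus MEC to -0.30 for Slit1 and 0.26 for Ntn4. For Slit3, P4 minus MEC ranged from -0.85 to 0.21 with 1 array left out. Robo1, het minus WT, turned with backgrounds as given to 0.30 in P4, 0.01 in P5 and 0.18 in MEC (mean 0.17). The 2 member differences of at least 2-fold between het and WT became 1 with median centring, 1 in the Cy5 channel alone and 0 with the mean over probes. The members spanning over 2 on the log2 scale were 3, and 1 with the mean over probes. The cause of these changes was not tested, except that the mean over probes averages in a gene's other probes by construction. Over all genes, calls in P4 against MEC numbered 4420, with 1716 for backgrounds as given and 16490 for median centring (4180 higher and 12310 lower, against 2355 and 2065). Calls in P5 against MEC numbered 1507, with 978 and 14368 (2831 higher and 11537 lower, against 492 and 1015), and 280 without WT P5. P4 against P5 gave 3711 calls, and 7062 with the sorted arrays alone, where het against WT gave 1905 in place of 0. Members called between het and WT numbered 0 in all settings. The genotype term of the fit compares populations within each genotype. No pairing by animal was made, because the labels do not say which arrays share mice. Signal over background limits Robo2, Ntn4 and Ntn1 in P4, and low signal also limits Slit2 in P5.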

Other observations

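Some genes of other guidance families were called between P4 and P5, in lists chosen with earlier results known, where 7.54% of all genes were called higher and 7.4% lower. Of 32 semaphorins, neuropilins and plexins, 30 were tested, and 8 were called higher in P4 and 2 lower, with a median difference of 0.33 beside 0.07 for all genes. The secreted semaphorin Sema3b had 1.15 in het P4 and 1.94 in WT P4, against -1.51 in het P5 and -2.02 in WT P5 (difference 3.30, adjusted p = 0.0159). Also higher were Sema6d (2.95), Sema3c (2.04), Sema5a (1.67), Sema3g (1.45), Nrp2 (1.22), Plxna2 (1.0) and Sema3e (0.92), and lower were Plxna3 (-0.79) and Sema7a (-0.88).

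Of 21 ephrins and Eph receptors, 6 were called higher in P4 and 2 lower, with a median of 0.29. The receptor gene Ephb1 had 3.55 in het P4 and 3.75 in WT P4, against 0.19 in het P5 and -0.12 in WT P5 (difference 3.62, adjusted p = 0.00255). Epha4 (3.42), Efnb2 (1.91), Efna5 (1.42), Ephb2 (1.07) and Efnb1 (0.69) were also higher, and Ephb3 (-1.19) and Efna1 (-0.65) lower. As for the Slits, 0 genes were called by limma in P4 against P5 without het P4 or without WT P4.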
